A study of Mus musculus with 4 samples.

Results

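The resting transcriptome of YAMC cells is described here from the 1 library, of 4 in the series, that was made from cells given a control siRNA and then medium alone. It was chosen by its label and not by any value. The gene counts of the library sum to 22422365 reads over the 29179 genes of the deposited table. Of those genes, 19668 had at least 1 read. The study sequenced polyadenylated RNA from YAMC cells to look for genes that depend on Sirt6, a nuclear deacylase, during stimulation with tumour necrosis factor (TNF). The other libraries came from cells given control siRNA and TNF (100 ng/mL), or Sirt6 siRNA and either medium alone or TNF. They are used below to ask whether a gene that was present or absent at rest was so elsewhere. Their reads, summed list levels and read ratios are also given beside some results, as a description. Per the labels' protocols, all 4 cultures were of passage 10 to 12 and received 50 nM siRNA with lipofectamine 2000. They stayed at 33 °C for 24 h after transfection, were moved to 37 °C without interferon-γ, and after 48 h in all had 24 h of medium with or without TNF. Before transfection the cells had been kept at 33 °C with 5 U/ml mouse interferon-γ, 5% serum, insulin, transferrin and selenous acid.

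YAMC stands for young adult mouse colon. The line is conditionally immortalised: it carries a temperature-sensitive simian virus large T antigen under an interferon-inducible histocompatibility promoter, so it divides in the cool with interferon-γ, and the antigen is lost when it is warmed without it. All cultures share that 1 line, so the values describe the line and not the colon epithelium of an animal. In the colon, absorptive colonocytes reclaim salt and water, goblet cells make the mucus, and stem cells at the crypt base renew both under Wnt signals. These cells are held together by claudins and E-cadherin, carry simple keratins, and take their intestinal identity from the transcription factors Cdx1, Cdx2 and Hnf4a.

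Levels are given as reads per 1000000 reads of the library (RPM), which do not correct for gene length, and, where genes are set against each other, as RPM per kilobase of the longest annotated transcript (RPKM). A gene is called present at 1 RPM or more, which took 23 reads here. For a gene without a read, the limit used here is 3 reads, or 0.134 RPM (the upper bound of the intervals described next is 0.165 RPM). With 1 library there is no replicate, so no level has a replicate error and no test was made. Intervals are exact 95% Poisson intervals of the reads (Clopper-Pearson for shares). They cover counting error only, since the reads carry no molecular identifiers, and their half-width is 43.3% of the level at 1 RPM, 13.3% at 10 RPM, 4.16% at 100 RPM and 1.31% at 1000 RPM. Because the RNA came from the whole culture, fewer cells with a transcript and less of it per cell cannot be told apart.

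Of the 29179 genes, 14745 (50.5%) were present, and of the 21174 protein-coding genes 12558 (59.3%) were. Counts of present members in the lists and families below are to be read against these shares. No read fell on 9511 genes (32.6%), and another 4923 had reads but stayed under 1 RPM. Between 1 and 10 RPM lay 4497 genes, between 10 and 100 RPM 7897 and between 100 and 1000 RPM 2275, and these last held 53.1% of the reads. Only 76 genes reached 1000 RPM, and they held 13.6%. The reads were spread widely: the 10 genes with the most reads took 3.96%, the first 100 took 15.9%, the first 1000 took 48.1%, and 1098 genes made up 50%. The median gene stood at 1.11 RPM, the median protein-coding gene at 4.64 RPM and the median present gene at 25 RPM. Protein-coding genes took 85.6% of the reads, pseudogenes 12.8%, long noncoding RNA genes 0.142% and entries without a match in the reference annotation 1.46%. The long noncoding share is no level of that class in the cells. Of 30 long noncoding RNAs looked for by name, 2 are entries of the table. The entry of the class with the most reads, Cct6a, is classed as a processed transcript and had 7159 of its 31770 reads.

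**Figure D1:**
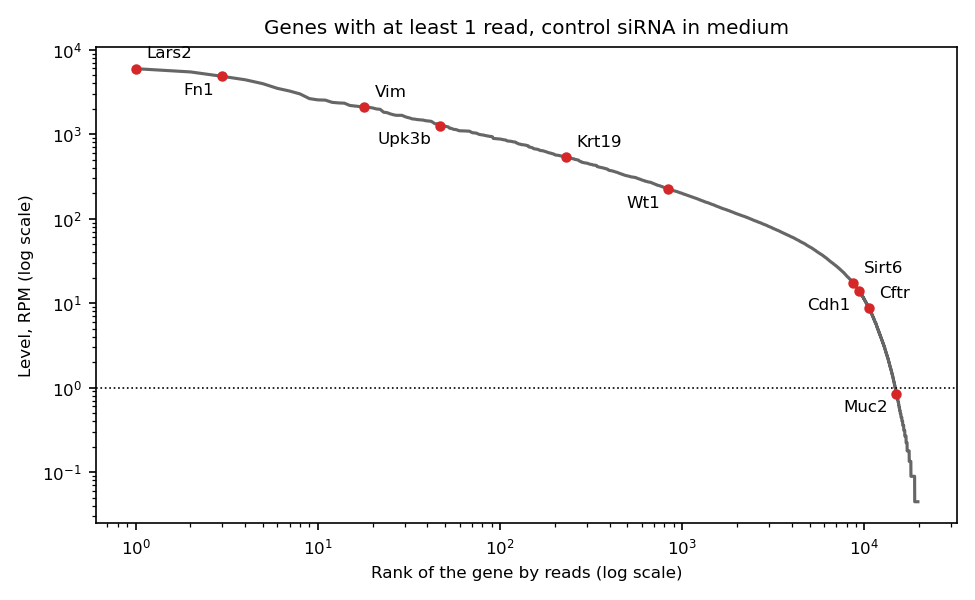
Level of each gene with at least 1 read in the control siRNA library in medium, in RPM on a log scale, against its rank by reads, also on a log scale; the dotted line is 1 RPM, the minimum for a gene to be called present. The curve runs from Lars2 at 5968 RPM, past Fn1 at 4839, Vim at 2094 and Upk3b at 1264 RPM, down to Cdh1 at 13.9, Cftr at 8.7 and Muc2 at 0.847 RPM.

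The genes with the most reads encoded translation factors, actins and other cytoskeletal proteins, matrix proteins and mitochondrial proteins. Eef1a1, the elongation factor that brings aminoacyl-tRNA to the ribosome, had 5459 RPM (interval 5429 to 5490), and Fn1, which encodes the matrix protein fibronectin, had 4839 RPM (4810 to 4868). Actb, the cytoplasmic β-actin gene, had 4408 RPM (4380 to 4435) and Actg1, for γ-actin, 3490 RPM. Col1a1, for a chain of type I collagen, had 3244 RPM (3221 to 3268). The intermediate filament gene Vim had 2094 RPM, the matrix gene Fbln2 2155 RPM, the basement membrane proteoglycan gene Hspg2 2084 RPM and the non-muscle myosin gene Myh9 2382 RPM. Per kilobase, and among protein-coding genes that share at most 10% of their sequence with other genes, Actb led at 2296 RPKM. It was followed by mt-Cytb, a mitochondrial respiratory chain gene, at 2036 RPKM, and mt-Atp8, for a mitochondrial ATP synthase subunit, at 1791 RPKM. Lars2 stood next at 1533 RPKM. That order is one for the longest transcript: on the median transcript length Col1a1 stood at 7581 RPKM and Actb at 5108 RPKM. S100a6, a small calcium-binding protein gene, had 1326 RPKM, B2m, the light chain of class I histocompatibility molecules, 1221 RPKM, Lgals1, a galectin gene, 1035 RPKM, and the chaperone gene Hsp90ab1 931 RPKM.

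Many of the read-rich entries were copies of other genes, and their values cannot be taken as levels of those entries alone. For each gene the share of its 50-base sequences that also occurs in transcripts of another gene was computed. Over 10% was shared by 8191 genes, which held 33.9% of the reads, and over 50% by 3234 genes, which held 15.9%. Of the 40 genes with the most reads, 28 were protein-coding (4 of them encoded by the mitochondrial genome) and 11 were pseudogenes, and 23 shared over 10%. Of the 30 pseudogenes with the most reads, 18 shared more sequence with Gapdh, the glycolytic enzyme gene, than with any other coding gene, between 62% and 100% of it. They stood at 731 to 2188 RPM, against 1989 RPM for Gapdh itself. The pseudogenes Gm10359, Gm12671 and Gm7336 had 37499 reads each, the same number to the read. One stretch of 50 bases is shown because it lies in the Gapdh coding sequence and is found unchanged in all 3 of those pseudogenes, on chromosomes 5, 4 and 7. It holds bases 93 to 142 of the transcript Gapdh-202, whose coding sequence runs from base 15 to 1091, on chromosome 6, and is printed 5′ to 3′ from the GENCODE M21 transcripts, the release behind the lengths and gene classes used here.
Gapdh: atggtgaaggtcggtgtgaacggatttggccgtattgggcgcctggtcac
Gapdh and these 3 entries had 953 such 50-base sequences in common. In all, 95 genes with at least 100 reads, in 42 groups, had the same read number as another gene in each of the 4 libraries. A further oddity of the table is a set of 75 names in capitals that stand beside the same name in mouse spelling, of which 40 were present and 23 of those had equal reads under both names, such as PPP1CA and Ppp1ca with 8835 reads each. Counts of gene classes below therefore include such copies.

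The labels call the cells colonocytes, and the lists of epithelial markers gave a mixed picture. Of 25 genes of simple epithelium, 9 were present, or 36%, against 59.3% of all protein-coding genes, and 9 had no read. The simple keratins stood far above the rest. Krt8 had 662 RPM (652 to 673), its partner Krt18 618 RPM (608 to 629) and Krt19 534 RPM (524 to 543), while Krt7 had 51 RPM. Krt8 shares 30% of its 50-base sequences with other genes, so part of its level may belong to copies, which was not tested. Cdh1, which encodes E-cadherin, the main adhesion molecule of epithelia, had 13.9 RPM (12.4 to 15.5). The protease St14 had 14.6 RPM, its inhibitor Spint1 15.1 RPM and the splicing regulator Esrp2 12.3 RPM. Ocln, for the tight junction protein occludin, was barely present at 1.43 RPM. No read was found for Epcam, the epithelial adhesion molecule, for Vil1, the actin bundler of microvilli, for the claudins Cldn3 and Cldn4, for the splicing regulator Esrp1, for the transcription factor Elf3, or for Prss8, Cdhr5 and Rab25.

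Markers of differentiated intestinal cells were mostly under 1 RPM. Of 21 genes of absorptive colonocytes, 3 were present: Cftr, the chloride channel, at 8.7 RPM (7.52 to 10), Scnn1a, for a subunit of the epithelial sodium channel, at 4.46 RPM (3.63 to 5.42), and Muc13, a transmembrane mucin gene, at 2.81 RPM (2.16 to 3.59). The chloride exchanger Slc26a3 missed at 0.981 RPM, and 10 genes had no read, among them the carbonic anhydrases Car1 and Car4, the sodium exchanger Slc9a3, the fatty acid binding protein Fabp1 and the peptide hormone genes Guca2a and Guca2b. The list's summed level was 18.8 RPM. Of 8 goblet cell genes 1 was present (Clca1, at 3.43 RPM, with 27% of its sequence shared), and the mucin gene Muc2 had 0.847 RPM. None of the 8 enteroendocrine genes was present. Of 6 tuft cell genes 2 were, Dclk1 at 19.4 RPM and the cation channel gene Trpm5 at 2.5 RPM, while their regulator Pou2f3 had no read. The intestinal stem cell list had 9 of 15 present (60%), close to the 59.3% of all protein-coding genes. Its median was 5.53 RPM, against 4.64 RPM for all protein-coding genes. Its members of wider expression led, with the hyaluronan receptor Cd44 at 537 RPM and the receptor inhibitor Lrig1 at 119 RPM. Lgr5, the receptor that marks crypt base stem cells, had 6.11 RPM (5.13 to 7.22), Ascl2 had 0.178 RPM and Olfm4 had no read.

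Among 16 transcription factors of the intestine, 8 were present (50%, against 59.3% of all protein-coding genes). Klf4, a factor of differentiating epithelium, had 189 RPM, Gata6, an endodermal and mesodermal factor, 126 RPM, the Notch target Hes1 31.7 RPM, Tcf7l2, which serves Wnt signals, 16.4 RPM, and Klf5 10.3 RPM. Sox9 had 2.41 RPM. The factors that define intestinal identity were at or near 0: Cdx1, Hnf4a and Atoh1 had no read, and Cdx2 had 2 reads, or 0.0892 RPM (0.0108 to 0.322). The defining markers of colonocytes were therefore absent or close to absent at this depth. The label "colonocytes" was not borne out by these lists, which were chosen with earlier results of these data known. The cells are called YAMC cells below.

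Markers of mesothelium, the lining layer of the body cavities, gave the fullest count among the 21 marker lists. The lists and their members were chosen with earlier results of these data known. This count is therefore a description and no independent evidence of cell type. Of 13 genes, 12 were present (92.3%), with a median of 284 RPM, against 4.64 RPM for all protein-coding genes, and 10 reached 100 RPM, where 9.58% of protein-coding genes did. Upk3b, a uroplakin gene, had 1264 RPM (1249 to 1279) and was 47th in order of reads. Upk1b, another uroplakin, had 940 RPM (927 to 953), and Msln, for the surface protein mesothelin, 543 RPM (533 to 552). The transcription factor Wt1 had 226 RPM (219 to 232), Lrrn4, a leucine-rich repeat protein gene, 181 RPM, the membrane glycoprotein gene Gpm6a 113 RPM, and the caveolin gene Cav1 284 RPM. Tbx18, a T-box factor, had 15.9 RPM and the mucin gene Muc16 5.71 RPM, while Calb2, for calretinin, had no read. The keratins Krt8, Krt18 and Krt19 belong to this list and to that of simple epithelium, 23.1% of the first and 12% of the second. Of the 10 genes left without them, 9 were present, with a median of 203 RPM.

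The counts were alike in the other libraries. The mesothelial list had 12 of 13 present in each of the other 3, with a summed level of 5386 RPM in the control siRNA library in medium and 4310 to 5327 RPM in the rest. The simple epithelial list had 9 of 25 present in all 4, with 1925 RPM in the control siRNA library in medium and 1245 to 1631 RPM in the rest. Upk3b had 28345 reads in the control siRNA library in medium and 18788 to 33495 in the rest, Wt1 5057 and 3438 to 5974, and Cdh1 312 and 218 to 273. The libraries differ in depth, so these reads show presence and not a change. Epcam had 0 reads in the control siRNA library in medium and at most 2 in any other, and Vil1 had 0 and at most 4. Whether the line holds cells of another kind, or 1 kind of cell with this mixture of markers, cannot be told apart in bulk RNA and was not tested.

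Mesenchymal markers were also largely present, with 21 of 25 genes and a median of 69.1 RPM. Behind Fn1, Col1a1 and Vim came Sparc, a matrix glycoprotein gene, at 1438 RPM, Col3a1 at 594 RPM, Cdh2, for N-cadherin, at 401 RPM, and the fibrillin gene Fbn1 at 211 RPM. Other members of the list were also well read, with Col6a1 at 364 RPM, Col5a1 at 309 RPM, Dcn at 143 RPM and Cdh11 at 123 RPM. The growth factor receptors that mark fibroblasts were low, with Pdgfrb at 8.96 RPM and Pdgfra at 4.15 RPM, and so was Thy1 at 4.01 RPM. Postn missed at 0.981 RPM, Fap had 0.401 RPM and Lum, for the proteoglycan lumican, had no read. Of 12 smooth muscle genes 9 were present. The shared contractile genes were well read, Tpm1 at 885 RPM, Acta2 and Tagln at 227 RPM each, Tpm2 at 140 RPM and Smtn at 115 RPM. Those of differentiated smooth muscle were low, Cnn1 at 3.08 RPM, Des at 1.25 RPM and Myh11 at 0.535 RPM. Tagln shares 58% of its sequence with other genes.

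Of the 13 genes of stratified squamous epithelium, 6 were present (46.2%, against 59.3% of all protein-coding genes). Krt14, a basal keratin gene, had 124 RPM and Ivl, for involucrin of the cornified envelope, 85.9 RPM, whereas Krt5, the usual partner of Krt14, had 2 reads and the master regulator Trp63 had none. Endothelial genes were present for 6 of 12 (50%), all under 50 RPM, with no read for Cdh5 and Cldn5. Of 7 pericyte genes 4 were present (57.1%, near the share of all protein-coding genes), led by Mcam at 215 RPM. Leukocyte markers were near 0: none of 6 pan-leukocyte genes and none of 11 lymphocyte and mast cell genes was present, Ptprc had no read, and the 6 summed to 2.23 RPM. Of 12 macrophage and neutrophil genes 5 were present (3 of those 5 share over 10% of their sequence), the highest by reads being the receptor Csf1r at 10.3 RPM, while Emr1 and Lyz1 had no read. Of 11 neuronal genes 5 were present, led by the ubiquitin hydrolase Uchl1 at 45.7 RPM, and of 8 glial and melanocyte genes none. The adipocyte list had 2 of 7, with the lipase gene Lpl at 97.8 RPM, the striated muscle list 1 of 9 and the hepatocyte list 1 of 7.

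**Figure D2:**
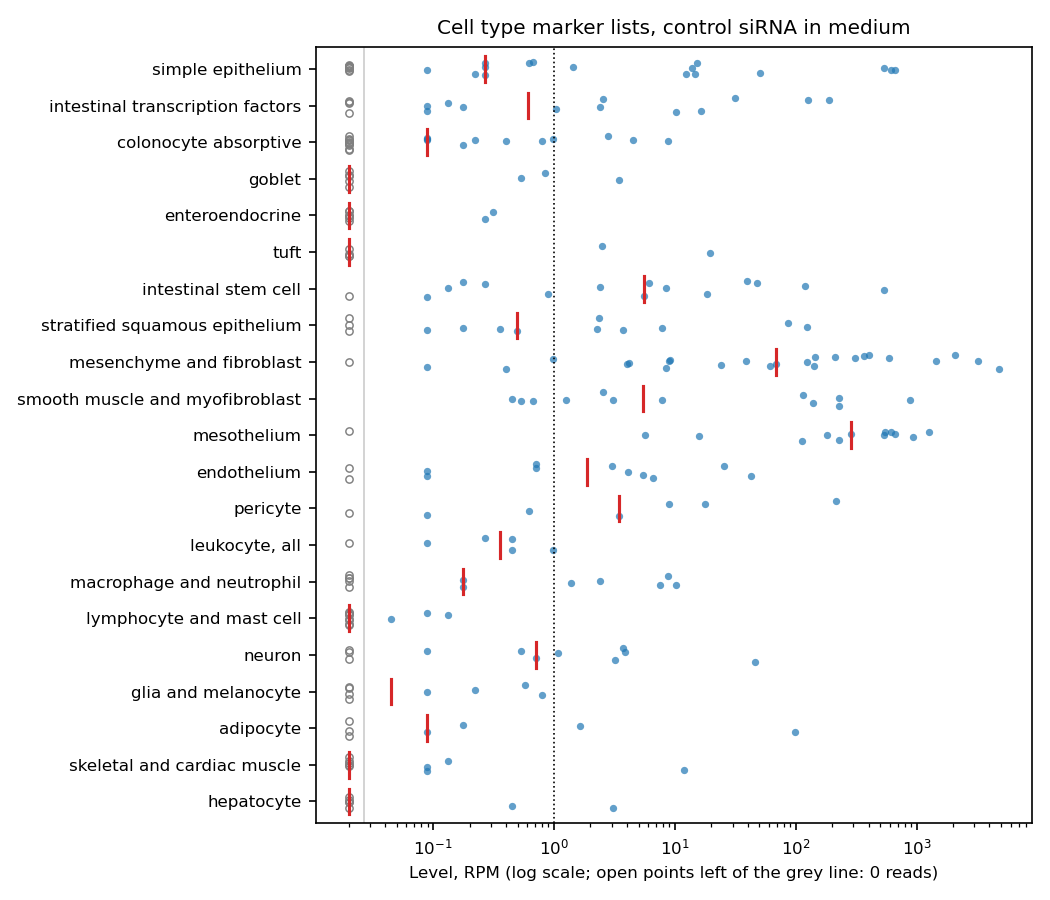
Level in RPM (log scale) of every member of the 21 cell type marker lists in the control siRNA library in medium; each point is a gene, open points left of the grey line had 0 reads, red bars are list medians and the dotted line is 1 RPM. The mesothelium list has its median at 284 RPM and 12 of 13 genes right of the dotted line, the simple epithelium list has 3 keratins over 500 RPM and its median at 0.268 RPM, and the absorptive colonocyte list has its highest point at 8.7 RPM.

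The promoter sequences of 4 of these markers and of Myh9 are shown so that the strongly read and the unread can be compared. Each runs from 250 bases before to 50 bases after the annotated start, 5′ to 3′ on the gene's own strand, from RefSeq on GRCm38.p6. Capitals mark TATAAA and GGGCGG on either strand (TTTATA and CCGCCC on the other) and the CArG box, the element bound by serum response factor. Upk3b lies at chr5:136038246-136038545 on the plus strand, Krt8 at chr15:102004293-102004592 on the minus strand, Vim at chr2:13574061-13574360 on the plus strand, Myh9 at chr15:77842126-77842425 on the minus strand and Vil1 at chr1:74409134-74409433 on the plus strand.
Upk3b: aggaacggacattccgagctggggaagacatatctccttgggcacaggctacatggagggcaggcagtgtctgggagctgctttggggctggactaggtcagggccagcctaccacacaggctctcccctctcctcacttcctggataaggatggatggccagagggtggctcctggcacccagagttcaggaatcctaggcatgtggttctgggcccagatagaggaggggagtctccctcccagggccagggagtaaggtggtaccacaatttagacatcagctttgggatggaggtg
Krt8: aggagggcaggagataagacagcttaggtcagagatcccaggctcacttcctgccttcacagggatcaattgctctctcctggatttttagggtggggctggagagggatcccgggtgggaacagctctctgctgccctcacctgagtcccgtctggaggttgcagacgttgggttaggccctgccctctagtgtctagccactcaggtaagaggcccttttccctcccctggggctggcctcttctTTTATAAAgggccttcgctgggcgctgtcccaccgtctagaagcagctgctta
Vim: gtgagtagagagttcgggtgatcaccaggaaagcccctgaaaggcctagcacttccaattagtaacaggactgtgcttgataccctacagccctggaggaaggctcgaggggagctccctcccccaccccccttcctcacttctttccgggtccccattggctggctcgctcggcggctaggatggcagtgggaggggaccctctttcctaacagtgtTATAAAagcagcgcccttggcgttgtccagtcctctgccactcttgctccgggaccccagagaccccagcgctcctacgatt
Myh9: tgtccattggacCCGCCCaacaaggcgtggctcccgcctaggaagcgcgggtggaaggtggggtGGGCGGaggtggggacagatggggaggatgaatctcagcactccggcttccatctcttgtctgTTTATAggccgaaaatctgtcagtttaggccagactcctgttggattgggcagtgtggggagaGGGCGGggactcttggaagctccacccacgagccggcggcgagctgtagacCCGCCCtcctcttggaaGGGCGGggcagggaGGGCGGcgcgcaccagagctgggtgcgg
Vil1: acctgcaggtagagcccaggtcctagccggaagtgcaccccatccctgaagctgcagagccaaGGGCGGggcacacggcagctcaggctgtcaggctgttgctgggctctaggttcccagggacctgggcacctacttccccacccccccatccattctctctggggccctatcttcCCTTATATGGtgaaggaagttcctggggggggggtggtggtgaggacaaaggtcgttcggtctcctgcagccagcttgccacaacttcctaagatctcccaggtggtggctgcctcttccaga
Upk3b, at 1264 RPM, held none of these motifs in this window. Krt8, at 662 RPM, and Vim, at 2094 RPM, each held TATAAA. In Vim it began at position -32 from the start, and in Krt8 at position -1, where it overlapped TTTATA. Myh9, at 2382 RPM, held GGGCGG 4 times and its reverse 2 times, and TTTATA besides. Vil1, with no read, held GGGCGG and, at position -73, a CArG box. Over all 32851 promoters of the table, 13.6% held TATAAA on either strand, 35.7% held GGGCGG and 1.63% held a CArG box.

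Across protein-coding genes, the share of promoters with a GC box differed between classes of level, given here as a description. GGGCGG, the core of the GC box, was found in 16.3% of the 4328 promoters of genes without a read, 36.1% of those under 1 RPM, 51.1% from 1 to 10 RPM, 65% from 10 to 100 RPM, 71.9% from 100 to 1000 RPM and 63% of the 46 promoters of genes at 1000 RPM or more. The median ratio of observed to expected CpG had a like course, with 0.196, 0.338, 0.601, 0.777, 0.827 and 0.713 in the same order. TATAAA took another course: it was in 25% of the promoters of unread genes, in 11.9%, 8.8%, 6.34% and 7.06% of the next 4 classes, and in 21.7% (10 of 46) of the highest. For the mesothelial list 10 promoters, of 8 of its 13 genes, were at hand. Of these 10, GGGCGG was in 2 and TATAAA in 3. Over the 18797 promoters of protein-coding genes the shares were 48.4% and 11.9%. GGGCGG was in 10 of 19 promoters of the simple epithelium list, 7 of 9 of the smooth muscle list and 23 of 29 of the actin cytoskeleton list. TATAAA was in 2, 1 and 2 of them. A CArG box was in 4 of the 29 promoters of the actin cytoskeleton list, which come from 23 genes, against 1.47% of the promoters of protein-coding genes. It was in 1 of 9 of the smooth muscle list, 1 of 19 of the simple epithelium list and 0 of 10 of the mesothelial list.

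Hox genes, whose products set position along the body axis and whose higher paralogue numbers serve more posterior regions, were broadly present at low levels. Of 38 genes, 32 were present (84.2%), with a median of 5.84 RPM and none over 40.5 RPM. Hoxb9 stood at that value (40.5 RPM), Hoxa9 at 27.1, Hoxa10 at 26.4 and Hoxb6 at 26.3 RPM. All 4 clusters contributed, with 9 of 11 genes present in the Hoxa cluster, 9 of 10 in Hoxb, 8 of 9 in Hoxc and 6 of 8 in Hoxd. The most posterior paralogues were unequal: Hoxc13 had 18.6 RPM, Hoxd13 8.38 RPM and Hoxb13 8.25 RPM, but Hoxa13 had 2 reads, or 0.0892 RPM. Of other factor families, Klf genes were present for 11 of 17, Sox genes for 6 of 19 (Sox4 at 193 RPM), forkhead genes for 22 of 45 (Foxm1, which drives mitotic genes, at 156 RPM) and GATA factors for 4 of 6, with Gata4 at 18.5 RPM after Gata6. Zinc finger genes named Zfp were present for 315 of 362, with a median of 6.71 RPM.

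**Figure D3:**
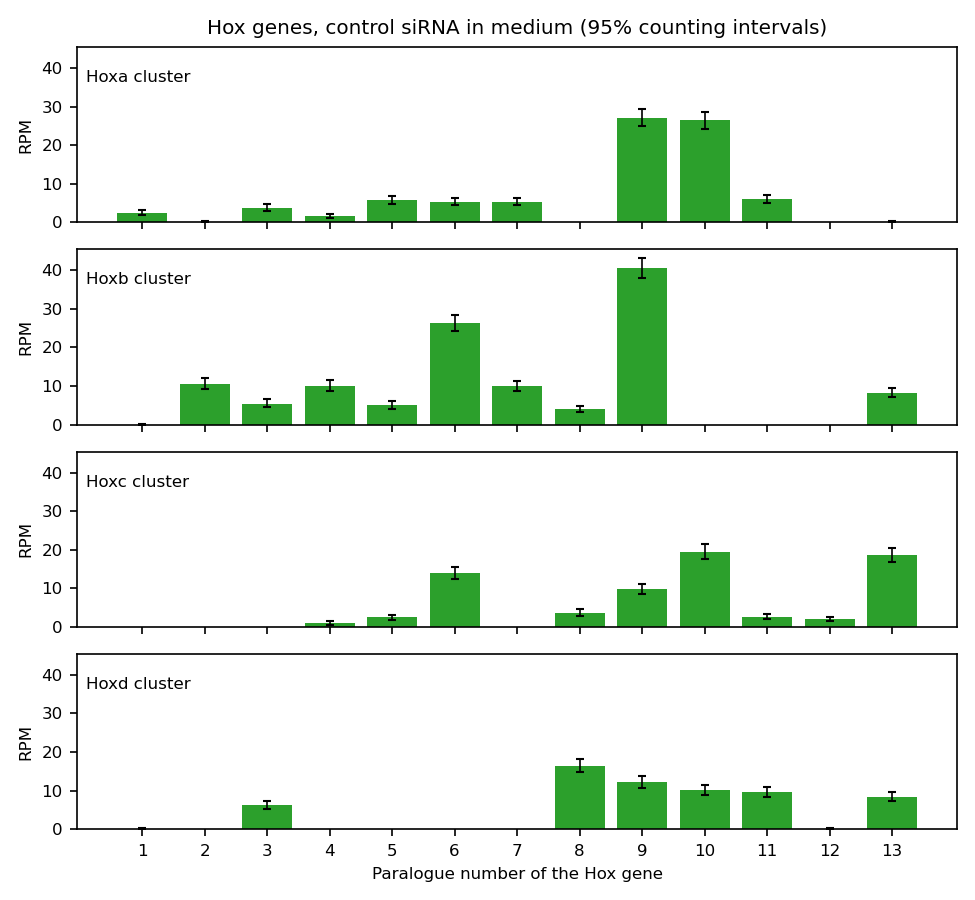
Level in RPM of each Hox gene of the table in the control siRNA library in medium, by cluster and paralogue number; error bars are exact 95% counting intervals. Bars are tallest for Hoxb9 at 40.5, Hoxa9 at 27.1, Hoxa10 at 26.4 and Hoxb6 at 26.3 RPM, and Hoxa13 is near 0 while the other number 13 genes stand at 8.25 to 18.6 RPM.

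Matrix genes were among the most strongly read. Of 44 collagen chains 29 were present, and the family took 0.827% of the reads. Per kilobase, Col1a1 stood at 547 RPKM, Col5a2 at 208, the basement membrane chain Col4a1 at 132, Col3a1 at 107, Col6a1 at 88.7 and Col4a2 at 70.8 RPKM. Chains that assemble together were not always level. Type I collagen is built from Col1a1 and Col1a2, and Col1a2 had 11.4 RPKM, a ratio of 48.1 between the chains (253 on the median annotated transcript length). Type VI collagen takes chains from Col6a1, Col6a2 and Col6a3, and these stood at 88.7, 28.8 and 0.0706 RPKM, the last from 16 reads. Col4a1 and Col4a2 differed less, with a ratio of 1.86. In the other 3 libraries the reads of Col1a1 were 42.7 to 55 times those of Col1a2, against 53.3 times in the control siRNA library in medium. Laminins, the scaffold of basement membranes, were present for 8 of 11 chains, with Lamb1 at 53.6 RPKM, Lama5 at 45.3 and Lamc1 at 43.6 RPKM. That order depends on the length used: on the median transcript length Lama5 had 852, Lamc1 360 and Lamb1 125 RPKM. Integrin family genes, most of them for chains of receptors for matrix or for other cells, were present for 18 of 28, with Itgb1 at 233 RPKM, its partner Itga3 at 88.6 RPKM and Itgav at 46 RPKM.

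Among keratins and junction genes a few members carried most of the level. Of 51 keratins 13 were present, and Krt18 at 430 RPKM, Krt19 at 339, Krt8 at 338, Krt14 at 72.9 and Krt7 at 12.5 RPKM stood above the others, the next being Krt16 at 5.47 RPKM. Claudins, which seal tight junctions, were present for 3 of 25: Cldn15 at 97.9 RPM, Cldn12 at 57.2 RPM and Cldn25 at 45.8 RPM. Of 31 cadherin and junction genes 22 were present. Per kilobase, N-cadherin (Cdh2) had 82.9 RPKM, P-cadherin (Cdh3) 54.4 RPKM and E-cadherin (Cdh1) 3.14 RPKM. The catenins that link cadherins to actin were higher, with Ctnna1 at 164 RPKM and Ctnnb1 at 151 RPKM. Plakoglobin (Jup) had 77.6 RPKM, the junctional adhesion molecule F11r 87 RPKM, and the tight junction scaffold Tjp1 24.7 RPKM. Annexins, which bind membranes in the presence of calcium, were present for 10 of 12, led by Anxa1 at 793 RPKM. Genes with names in S100 were present for 10 of 17, led by S100a6 at 1326 RPKM. Those 10 include S100pbp (41 RPM), for an S100-binding protein that is not itself an S100 protein.

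**Figure D4:**
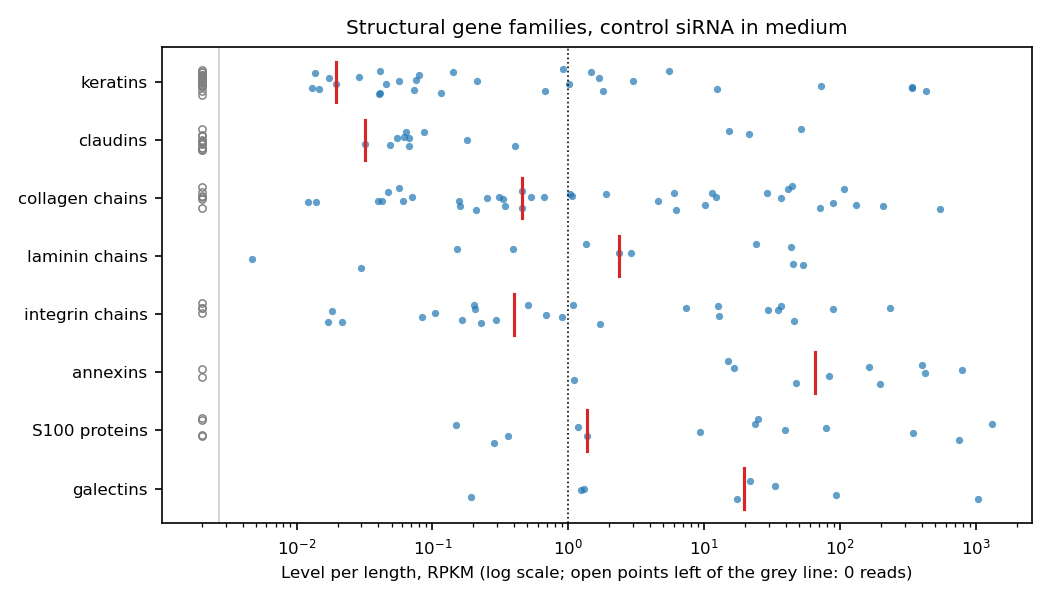
Level per length in RPKM (log scale) of the members of 8 structural gene families in the control siRNA library in medium; each point is a gene, open points left of the grey line had 0 reads, red bars are family medians and the dotted line is 1 RPKM. The keratins fall apart, with 3 members at 338 to 430 RPKM and most left of the dotted line, while the annexins lie mostly above 10 RPKM and Lgals1 stands at 1035 RPKM among the galectins.

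The remodelling enzymes of the matrix were present for 24 of 28. The inhibitors took most reads, Timp3 with 1799 RPM and Timp2 with 1484 RPM, then the disintegrin protease Adam9 at 494 RPM and the lysosomal cathepsin D gene Ctsd at 411 RPM. The gelatinase Mmp2 had 183 RPM and the membrane protease Mmp14 115 RPM. Mmp9 had 2 reads and Mmp7, a protease of epithelial cells, had none. Plasminogen activation was represented by the tissue activator Plat at 150 RPM and the receptor Plaur at 98 RPM.

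Housekeeping machinery filled much of the upper range. Ribosomal proteins of the cytosol were present for 86 of 90 genes, with a median of 321 RPM, and took 3.08% of the reads (3.07 to 3.08), the acidic protein Rplp0 leading with 1175 RPM. The 13 proteins encoded by mitochondrial DNA were all present and took 1.5% (1.49 to 1.5), from mt-Co1, a cytochrome oxidase subunit, at 3961 RPM to mt-Nd3 at 97.1 RPM. Of these 13, 7 share over 10% of their sequence with other genes. Translation factors were present for 17 of 18, of which 7 share over 10%, and the exception, Eef1a2, is known as the form of muscle and neurons. Chaperones were present for 24 of 24, of which 10 share over 10%, with Hspa8 at 2638 RPM. The heat-inducible genes were low, Hspa1b at 7.85 RPM and Hspa1a at 5.04 RPM, and they share 62% and 66% of their sequence with other genes. Proteasome subunits were present for 47 of 48, with a median of 112 RPM. Of 30 genes of glycolysis and sugar transport 23 were present. The forms of proliferating and widespread tissues were read, Pkm at 1971 RPM, Eno1 at 1431 RPM, Ldha at 565 RPM and Hk1 at 97.8 RPM, and those of liver, testis or leukocytes were not, with no read for Pklr, Ldhc and Hk3. The actin cytoskeleton list had 22 of 24 present, all 22 over 100 RPM, Vil1 and the leukocyte form Lcp1 being the exceptions.

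Genes of the cell cycle were present throughout. All 22 proliferation genes were present, with a median of 206 RPM. The topoisomerase Top2a had 477 RPM (468 to 486), the proliferation antigen Mki67 449 RPM, the ribonucleotide reductase subunit Rrm1 394 RPM and the replication clamp Pcna 312 RPM. The lowest by reads was the checkpoint kinase Bub1, at 55.7 RPM. Of 26 cyclins, kinases and inhibitors 24 were present. Cyclin D genes were read from Ccnd2 at 414 RPM, Ccnd1 at 302 RPM and Ccnd3 at 140 RPM. The inhibitors Cdkn1a and Cdkn2a, which restrain the cycle downstream of p53 or upstream of it and of Rb, had 402 and 370 RPM. All 20 genes of the p53 list were present, with Ccng1 at 668 RPM, the p53 ligase Mdm2 at 451 RPM, Phlda3 at 243 RPM, Zmat3 at 234 RPM and Trp53 itself at 204 RPM. Of 32 apoptosis regulators 28 were present, and Mcl1, a survival factor, led by reads at 188 RPM. Per kilobase, Bax, its pro-apoptotic relative, had 73.7 RPKM and Mcl1 55.1 RPKM. Casp1, the inflammatory caspase, had 2 reads. Among 29 proto-oncogenes and members of the RAS pathway, all were present, from Akt1 at 278 RPM to Fosb at 3.52 RPM.

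Of 32 genes of TNF receptor signalling 30 were present, with a median of 45.2 RPM. Per kilobase, the receptor Tnfrsf1a had 54.8 RPKM and Tnfrsf1b 41.1 RPKM. The adaptor Tradd had 25 RPM, the ligase Traf2 45.8 RPM, the kinase Ripk1 44.6 RPM, the kinase Map3k7 157 RPM, and the NF-κB subunits Rela, Nfkb1 and Nfkb2 125, 101 and 138 RPM. The feedback genes Tnfaip3 and Nfkbia had 103 and 45.8 RPM. The cytokine itself was near 0, with 2 reads for Tnf and none for Lta. Ripk3 and Mlkl, known for necroptosis, had 57.2 and 66.1 RPM.

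Other inflammatory receptors varied. Of 30 interferon genes 24 were present: the type I receptor genes Ifnar1 and Ifnar2 at 101 and 37 RPM, the interferon-γ receptor genes Ifngr2 and Ifngr1 at 144 and 32 RPM, and the kinase Jak1 at 185 RPM. Neither Ifnb1 nor Ifng had a read, and Ifnlr1, the receptor of the epithelial type III interferons, missed at 0.937 RPM. Of 28 pattern recognition genes 17 were present (60.7%, against 59.3% of all protein-coding genes). The cytosolic RNA sensors led by reads, Ddx58 at 104 RPM and Ifih1 at 78.8 RPM, with the peptidoglycan sensor Nod1 at 65.5 RPM. Toll-like receptors were lower, Tlr4 at 20.6 RPM, Tlr3 at 14.2 RPM, Tlr2 at 7.85 RPM and Tlr5, the flagellin receptor, at 3.52 RPM, and Tlr9 and Nlrp3 had no read. Of 29 cytokine receptors 22 were present, with the shared signal chain Il6st at 220 RPM and Il22ra1, the epithelial receptor of interleukin 22, at 80.1 RPM (Il10rb, its partner, had 55.9 RPM). Chemokines were present for 17 of 41 at rest, with Ccl2 at 269 RPM, Cxcl5 at 127 RPM, Cxcl12 at 77.9 RPM and Cxcl10 at 44.3 RPM, and interleukins for 7 of 34, none over 29.1 RPM (Il33).

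**Figure D5:**
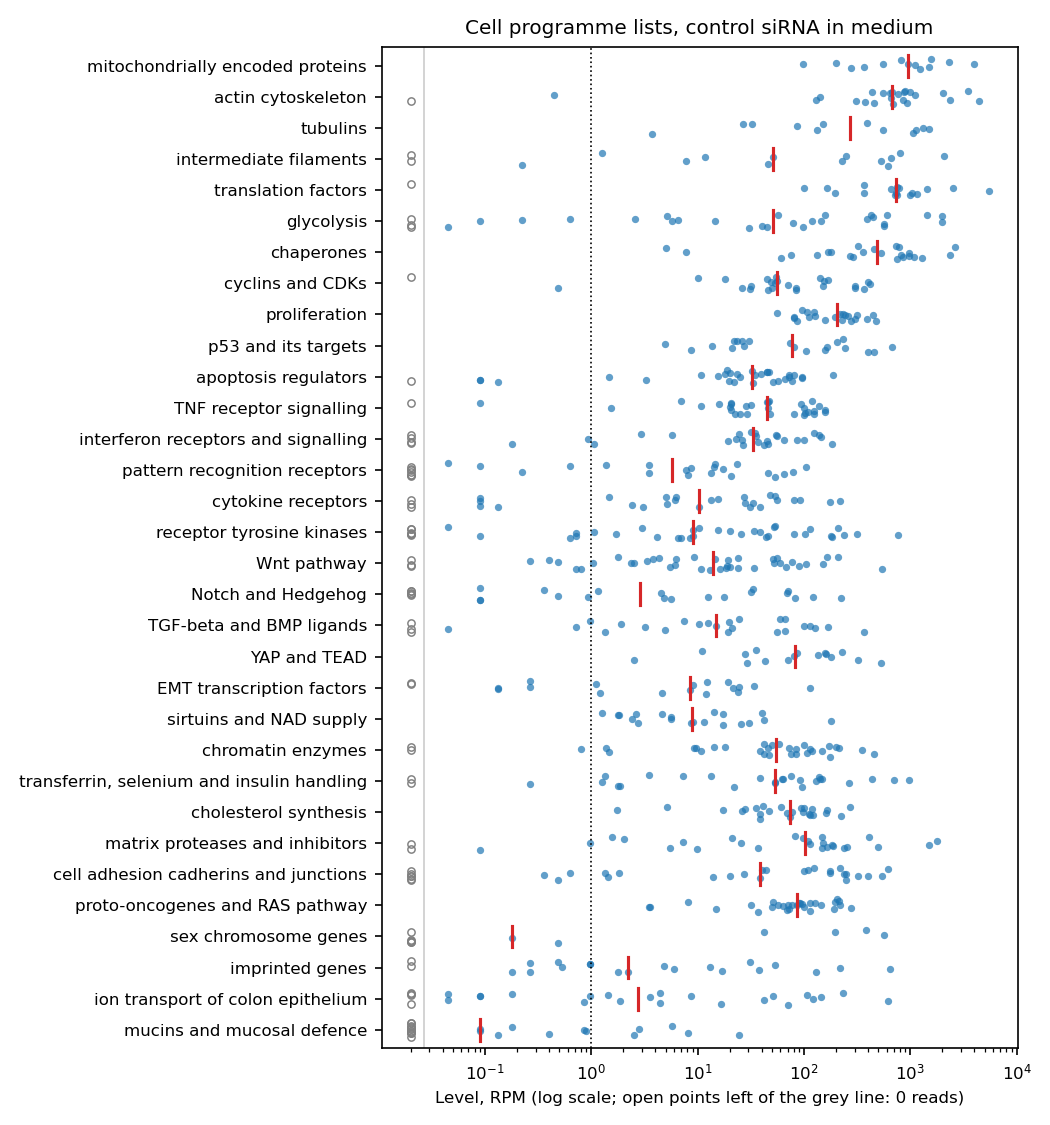
Level in RPM (log scale) of every member of 32 cell programme lists in the control siRNA library in medium; points, open points, bars and lines as in the plot of marker lists. The mitochondrially encoded genes, actin cytoskeleton, translation factors and chaperones have medians of 956, 677, 739 and 490 RPM, and the mucin list has its median at 0.0892 RPM.

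Of 39 receptor tyrosine kinases 28 were present. Per kilobase, the ephrin receptor Epha2 had 196 RPKM, Axl 73.4 RPKM, Ptk7 56 RPKM, the collagen receptor Ddr1 46.8 RPKM and the epidermal growth factor receptor Egfr 20.6 RPKM. Flt4, best known as a lymphatic vessel receptor, had 29.5 RPKM, while Kdr of blood vessels had 0.512 RPKM. Kit, Alk and Fgfr4 were among 6 without a read. Of 42 Wnt pathway genes 34 were present, with Ctnnb1 at 545 RPM, the co-receptors Lrp5 and Lrp6 at 150 and 104 RPM, and Myc at 89.2 RPM. The target gene Axin2 had 5.53 RPM and Rnf43 0.268 RPM. Wnt5a, a ligand of mesenchyme, led the ligands by reads at 59.2 RPM, and Wnt3 had 0.401 RPM. Of 24 Notch and Hedgehog genes 13 were present, with Notch2 at 224 RPM, Smo at 122 RPM and the target Gli1 at 2 reads. No read was found for Shh or Ihh. All 16 genes of the YAP and TEAD list were present, with the targets Amotl2 at 534 RPM, Cyr61 at 321 RPM and Ctgf at 179 RPM and the co-activators Yap1 and Wwtr1 at 158 and 135 RPM. Of 27 TGF-β and BMP genes 21 were present, led by reads by Ltbp3 at 370 RPM and Gdf6 at 170 RPM. Transcription factors of the epithelial to mesenchymal transition and of its opposite were present for 13 of 19, Zeb2 at 34 RPM, Twist1 at 24 RPM, Zeb1 at 21.4 RPM and Snai2 at 19.2 RPM, while Grhl2 and Ovol1, which hold the epithelial state, had 0.268 RPM each.

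The sirtuins and their cofactor supply, the system that the study silenced in part, were present for 20 of 20 genes. Sirt6 had 17.3 RPM and 9.15 RPKM. Per kilobase, Sirt2 was at 18.9 RPKM, Sirt6 at 9.15, Sirt7 at 7.75, Sirt4 at 3.13, Sirt1 at 2.62, Sirt3 at 0.751 and Sirt5 at 0.736 RPKM. Nampt, which makes the NAD precursor, had 41.7 RPM and Parp1, a consumer of NAD, 179 RPM. Of 32 chromatin enzymes 29 were present, with the maintenance methyltransferase Dnmt1 at 456 RPM and the bromodomain gene Brd2 at 354 RPM. The de novo methyltransferases were lower, Dnmt3a at 38.8 RPM and Dnmt3b at 1.47 RPM, and Hdac9 had no read.

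Genes that handle the supplements of the medium were read for the most part, 24 of 27. Tfrc, which takes up transferrin, had 138 RPM, and the ferritin genes Ftl1 and Fth1 had 978 and 704 RPM, Ftl1 with 58% of its sequence shared. Selenoenzymes followed, Txnrd1 at 433 RPM and Gpx1 at 263 RPM, but Gpx2, the gastrointestinal glutathione peroxidase, had no read. The insulin receptor Insr had 38.5 RPM. All 25 genes of cholesterol synthesis and its control were present, with the transcription factor Srebf2 at 270 RPM, its relative Srebf1 at 160 RPM and the pathway enzyme Cyp51 at 122 RPM. Of 95 cytochrome P450 genes 14 were present, and Cyp1b1 took 304 RPM while no other passed 40.5 RPM.

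Of 26 ion transport genes 15 were present (57.7%, against 59.3% of all protein-coding genes), with the anion exchanger Slc4a2 at 233 RPM, the chloride-loading cotransporter Slc12a2 at 107 RPM and the calcium-gated chloride channel Ano1 at 41.9 RPM. The sodium channel subunit Scnn1b had 1 read and Scnn1g none. Of 23 mucin and mucosal defence genes 5 were present, with the protease inhibitor Slpi at 24.5 RPM and Lcn2 at 8.12 RPM. Muc3, Muc4, Muc5ac, Reg3b and Reg3g had no read.

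Some classes were almost without reads at this depth. Of 1100 olfactory receptors 3 were present (0.273%), of 326 vomeronasal receptors 1, of 73 defensins none and of 453 immunoglobulin and T cell receptor segments none. The olfactory receptor with the most reads was Olfr613, at 20.8 RPM. Of the genes on the sex chromosomes, Ddx3x had 563 RPM and Eif2s3x 386 RPM, whereas Uty had 0.491 RPM and Ddx3y 0.178 RPM, and no read was found for Eif2s3y, Kdm5d, Usp9y, Zfy1 or Sry. Of 21 imprinted genes 12 were present, Gnas at 649 RPM and the growth inhibitor Grb10 at 219 RPM, with Igf2 at 1.78 RPM and Dlk1 at 0.535 RPM. Of 30 long noncoding RNAs that were looked for only 2 are entries of the table under those names, so nothing is said of that class beyond its share of the reads.

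Presence was nearly the same in the other libraries, which differed from this one in siRNA or TNF and in which no replicate exists. Of the 14745 present genes, 98.6% were present with Sirt6 siRNA in medium, 98.2% with TNF after control siRNA and 97.7% with TNF after Sirt6 siRNA. In all 3, 14275 (96.8%) were present, and 86 were in none of them, none over 2.36 RPM here. Of the 9511 genes without a read, 1674 had one in another library, 7837 had none in any, and 4 were present elsewhere. These were the chemokine gene Cxcl3, the lectin receptor gene Clec4e, the Schlafen gene Slfn4 and the pseudogene Gm4759. Cxcl3 had 0 reads in the control siRNA library in medium, 8 with Sirt6 siRNA in medium, 36 with TNF after control siRNA and 39 with TNF after Sirt6 siRNA. Clec4e had 0 reads in both medium libraries, 33 with TNF after control siRNA and 12 with TNF after Sirt6 siRNA.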

How the data were processed

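The deposited table gives read counts per gene for 4 libraries (per the file headers), all whole numbers. Its columns headed RPKM hold RPM: each deposited value equalled the count over the library total to within 0.0005, with no gene length. Per the submitters' processing notes, CASAVA, Bowtie 1.0.1 and edgeR were used, with no step or role stated. The build, the annotation and the read counter are not given in the sources used here. Library totals, summed over the genes of the table, were 18793708 to 23749380 reads, with 22422365 in the library described.

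RPM, RPKM and exact intervals (Python 3.11.15, scipy 1.17.1, tested on simulated counts) were computed from the counts. Of 29179 identifiers 27928 matched GENCODE M21, which gave lengths, classes and shared 50-base sequences, and 27 names turned into dates were restored. Promoters came from RefSeq (GRCm38.p6). Levels only were described, with no test.

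Genes were named by rule: the 40 with the most reads, the 20 highest per kilobase, the first 5 of each class and family, the first 4 of each list, markers without a read, Sirt6, and any list member needed. The 54 lists and 38 families (1087 list entries, 38 not in the table) were chosen with earlier results of these data known. Alternatives changed the minimum for presence, the denominator, the scaling (edgeR 4.0.16 and DESeq2 1.42.0 in R 4.3.3) and the transcript length. For shares of reads, genes taken out of the denominator were taken out of the class too. Some genes covered by the naming rule are not reported here.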

Additional observations from a re-analysis of the deposited data

How the results depend on the processing

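The number of present genes, 14745, stayed within 1.5 times under every alternative tried: 15729 at 0.5 RPM, 11818 at 5 RPM, 13254 at 1 RPKM, 10658 of 20988 without genes that share over 10%, and 19668 with any read. The counts for simple epithelium, mesothelium and mesenchyme did likewise. The absorptive colonocyte list, with 3 of 21 present, had 5 at 0.5 RPM and 1 at 5 RPM. Over all 54 lists, 31 of 216 recounts moved by more than 1.5 times. Shares of reads moved more than their counting intervals. Where genes were left out of the total they also left the class, so those shares do not show a change of denominator alone. The first 100 genes, 15.9%, took 14.8% of a total without mitochondrially encoded genes, 12.4% without the 10 highest genes, 16.9% per transcript length and 14.5% without pseudogenes. Mitochondrially encoded genes, 1.5%, took 1.15% without the 10 highest, 3.33% per length and 1.72% without pseudogenes. Ribosomal proteins, 3.08%, took 3.12%, 3.2%, 5.83% and 3.4% under the same 4, and pseudogenes, 12.8%, took 13% under the first 2 and 36% per length. The denominator without pseudogenes was added after seeing the data. Levels in RPM were recomputed for 16 genes. They moved little with scaling (a median of 0.993 times under TMM and 0.99 times under DESeq2). The median was 1.02 times with a total without mitochondrially encoded genes, 1.04 times without the 10 highest genes and 1.15 times without pseudogenes. Of these 80 recounts 44 left the counting interval. The median transcript length gave RPKM a median of 1.71 times higher (Col1a1 7581 RPKM against 547). No paired analysis was possible because the groups hold 1 library each and no test was made.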

Other observations

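Lars2, the mitochondrial leucyl-tRNA synthetase gene, had the most reads of any gene, 133823, or 5968 RPM (5936 to 6000). Per kilobase it stood at 1533 RPKM, while the 16 other mitochondrial aminoacyl-tRNA synthetase genes, a set chosen after its value was seen, ranged from 0.656 to 10.7 RPKM (Iars2), with a median of 3.84 RPKM. It shared 0.196% of its 50-base sequences with other genes. Its reads were 154749 with Sirt6 siRNA in medium, 86150 with control siRNA and TNF and 94197 with Sirt6 siRNA and TNF. What its reads derive from was not tested.

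The enzymes that attach glucuronic acid, the Ugt family, were present for 9 of 20 genes. The 8 Ugt1a members with the most reads, which share their 3′ exons, ranged from 44.8 RPM (Ugt1a1) to 72.8 RPM (Ugt1a7c). Among ligands of the fibroblast growth factor family, 6 of 22 were present, Fgf5 at 76.8 RPM, Fgf7 at 50.6 RPM and Fgf10 at 42.9 RPM leading by reads. Fgf7 and Fgf10 are known as factors that mesenchyme makes for epithelium.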
